A study of Mus musculus with 11 samples.

Results

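The transcripts of 10 cytokine receptor chains were followed from naive to memory CD8 T cells: Il7r, Il2ra, Il2rb, Il2rg, Il15ra, Il4ra, Il21r, Il6ra, Il6st and Il27ra. They were chosen by gene symbol from a count table of 52636 genes, in which each symbol occurred in 1 row, and all 10 were among the 13735 genes with enough counts to be tested. RNA was sequenced from CD8 T cells sorted from spleens of C57BL/6 mice: 3 libraries of naive (CD44lo) cells and 4 each of CD45RBhi and CD45RBlo memory cells. Memory cells bound a tetramer carrying NP396, a peptide of the LCMV nucleoprotein. They were taken at week 6, on days 42 to 45, after intraperitoneal infection with 200000 pfu of LCMV Armstrong, a strain that is cleared, and the stated sort purity was above 99%. Labels of the naive group repeat the infection text and add a time entry of 6 to 8 weeks, whose meaning is not given, so it is not known here whether naive and memory mice differed in age or whether naive cells came from infected mice. No transgene or deletion is named. The labels do not say whether libraries of a group came from separate mice or pools, and p-values therefore reflect only how these libraries scatter, which may be technical.

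These chains fall into families that share subunits. IL-7 signals through Il7r and the common gamma chain Il2rg. IL-15 and IL-2 signal through Il2rb and Il2rg, with Il15ra or Il2ra as the private high-affinity chain; IL-15 is usually presented by Il15ra on neighbouring cells. IL-4 and IL-21 pair their own chains, Il4ra and Il21r, with Il2rg. IL-6 binds Il6ra, and IL-27 binds Il27ra, and both then engage the shared signalling chain Il6st (gp130). In CD8 T cells IL-7 and IL-15 are known as the cytokines that keep memory cells alive and slowly dividing, while IL-6 receptor chains are known to be carried by naive cells.

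Il6ra and Il6st showed the largest decreases of the set, so the 250 bases before each start are shown. They are from RefSeq on GRCm38.p6, 5′ to 3′ on the strand of the gene, with no capitals because none of the letters searched occurred in them. The Il6ra window is chr3:89913197-89913446 on the minus strand and the Il6st window is chr13:112463820-112464069 on the plus strand.
Il6ra: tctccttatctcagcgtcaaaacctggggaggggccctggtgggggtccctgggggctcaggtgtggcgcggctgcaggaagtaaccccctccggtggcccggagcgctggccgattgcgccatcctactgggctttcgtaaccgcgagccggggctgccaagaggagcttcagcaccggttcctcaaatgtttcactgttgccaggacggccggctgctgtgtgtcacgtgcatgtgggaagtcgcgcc
Il6st: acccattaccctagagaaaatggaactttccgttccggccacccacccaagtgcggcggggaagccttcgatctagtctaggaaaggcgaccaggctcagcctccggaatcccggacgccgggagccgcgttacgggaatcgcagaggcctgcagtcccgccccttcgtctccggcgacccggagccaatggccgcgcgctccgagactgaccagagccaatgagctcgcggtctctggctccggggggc
Both windows are rich in G and C, at 65.2% for Il6ra and 66.0% for Il6st, against a median of 52.4% over all 32817 promoter windows of the table. The letters searched, on both strands, were GTAAACA (FOXO), TTCNNNGAA (STAT, the same on both strands), GGTGTGA (T-box), CCGGAAG (ETS) and CTTTGAT (TCF). They occur in 3.16%, 7.01%, 3.33%, 6.90% and 3.21% of all windows in that order.
For Il7r, the 1 member that was called between the memory groups without pairing, the window held 1 match, to the STAT letters, starting 142 bases before the RefSeq start. The stretch of 30 bases around it (chr15:9529999-9530028, minus strand, match in capitals) lies 148 bases inside the outermost GENCODE start of Il7r and in no annotated exon.
Il7r: gttcaggagcTTCAGGGAAtaccaagatgc
RefSeq windows were found for 8 of the 10 members, 9 windows in all, and not for Il2rb and Il27ra. The ETS letters also occurred in the Il2rg window and in 1 of 2 Il15ra windows, and the FOXO letters in the Il21r window. A match is a description of the letters, and nothing about a factor follows from a match or its absence.

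Library totals ran from 18.02 to 23.15 M counts. The summed level of 8 CD8 T cell markers (Cd3d, Cd3e, Cd3g, Cd8a, Cd8b1, Trac, Cd2, Cd5) was 7765 to 8252 CPM in naive, 8384 to 9743 in CD45RBhi and 7832 to 9532 in CD45RBlo libraries, where CPM stands for counts per 1 M of a library total scaled between samples. Markers of other cell types were read in the same libraries, some of which CD8 T cells can express themselves. The 8 B cell markers summed to 51.3 to 58.4 CPM in naive and 10.8 to 23.6 in memory libraries, and Pax5, which defines B cells, had 3 to 5 counts in naive and 0 in every memory library. Cd22 of this list went the other way, with 20 to 62 counts in naive and 119 to 327 in memory libraries. The 8 markers of macrophages, monocytes and neutrophils summed to 30.0 to 53.4 CPM in naive and 24.96 to 39.1 in memory libraries, with S100a9 at 0 in every library. Lyz2 among them had 219 to 509 counts in naive and 1 to 35 in memory libraries, whereas Cd68 had 56 to 100 and 494 to 891. The 8 erythroid and platelet markers summed to 237.5 to 524 CPM in naive and 0.242 to 24.98 in memory libraries, where CD45RBlo replicate 1 was the highest. The 6 dendritic cell markers summed to 3.47 to 5.07 CPM in naive and 67.3 to 248 in memory libraries, mostly Itgax. Xcr1 had 21 to 24 counts in naive and 135 to 224 in memory libraries, while Flt3 had 0 to 2 counts and Siglech 0 in memory. The 5 NK cell markers summed to 40.0 to 49.3 CPM in naive and 268 to 441 in memory libraries, mostly Klrb1c and Eomes (also among the transcription factors below), while Ncr1, a defining NK receptor, had 0 to 2 counts in every library. The 6 CD4 and regulatory T cell markers summed to 7.16 to 8.12 CPM in naive and 14.9 to 22.0 in memory libraries, with Ctla4 at 16 to 40 counts in naive and 78 to 153 in memory and Zbtb7b at 0 to 5 and 122 to 199. Foxp3 had 16 to 30 counts in naive and 0 to 1 in memory. Their part in the differences from naive was not tested.

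Against naive cells, all 10 chains differed in CD45RBhi memory: 5 rose (Il7r, Il2rb, Il2rg, Il15ra, Il2ra) and 5 fell (Il4ra, Il21r, Il27ra, Il6st, Il6ra). Of all 13735 genes 41.5% passed in this comparison, 22.3% higher and 19.1% lower. In CD45RBlo memory 4 chains rose and 5 fell, and Il2rg did not pass. Of all genes 42.2% passed there, 22.4% higher and 19.8% lower, so a large part of the transcriptome was called in both. The CD45RBhi and CD45RBlo comparisons use the same 3 naive libraries. The groups did not overlap for 10 of 10 chains in CD45RBhi (47.4% of all genes, 24.1% higher and 23.3% lower). They did not overlap for 9 of 10 in CD45RBlo (49.6% of all genes, 25.2% higher and 24.3% lower). The median log2 fold change of the 10 chains was 0.05 in CD45RBhi and -0.11 in CD45RBlo, against -0.01 in both over all genes. All values are relative to the scaling: with library size alone, the median of all genes shifted to -0.16 and -0.14, and 2301 of 6025 calls were higher in CD45RBhi in place of 3064 of 5694. For CD45RBlo these counts were 2356 of 5965 in place of 3072 of 5794.

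**Figure D1:**
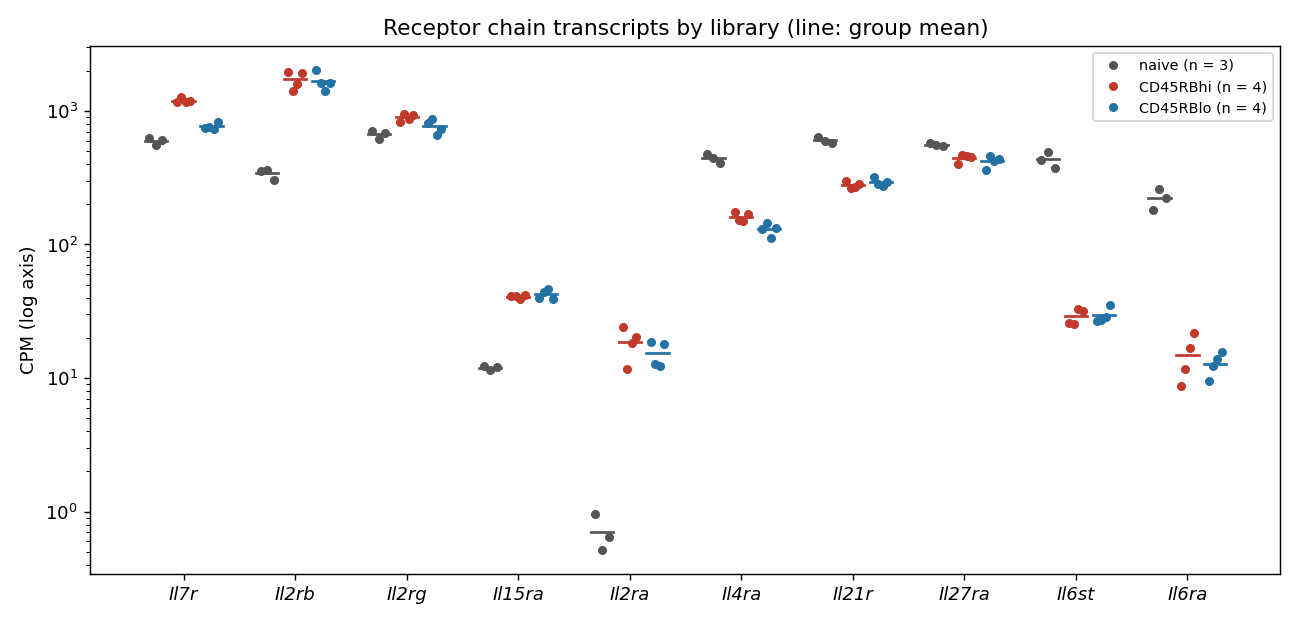
Level of each chain in CPM (log axis) in every library, with the group mean as a line, for 3 naive, 4 CD45RBhi and 4 CD45RBlo libraries. Naive libraries of Il2rb, Il15ra and Il2ra lie below, and those of Il4ra, Il21r, Il6st and Il6ra above, all memory libraries. Il7r sits at 3 separate levels.

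Il7r, the private chain of the IL-7 receptor, stood at a different level in each group. Its naive libraries held 626, 552 and 601 CPM, its CD45RBhi libraries 1161, 1261, 1174 and 1186, and its CD45RBlo libraries 751, 764, 737 and 827. No 2 groups overlapped: every CD45RBhi library lay above every CD45RBlo library, and every CD45RBlo library above every naive one. Against naive (593 ± 37.8 CPM, SD, n = 3) Il7r was 2.02-fold higher in CD45RBhi (log2 fold change 1.01 ± 0.0718 SE, adjusted p = 1.93e-07) and 1.30-fold higher in CD45RBlo (0.38 ± 0.0705, adjusted p = 0.000841). In bulk RNA, fewer cells that express a gene and less RNA per cell cannot be told apart.

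Il2rb, the signalling chain shared by the IL-15 and IL-2 receptors, was the chain with the highest CPM in memory cells. It was at 357, 364 and 303 CPM in naive libraries. In CD45RBhi libraries it reached 1952, 1419, 1590.2 and 1933 CPM, and in CD45RBlo libraries 2027, 1605, 1405 and 1611. The memory libraries lay far above the naive ones, and the memory groups overlapped. The fold was 5.05 for CD45RBhi (log2 fold change 2.34 ± 0.148, adjusted p = 6.67e-08) and 4.87 for CD45RBlo (2.28 ± 0.148, adjusted p = 7.34e-08).

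The private chains of the same 2 cytokines rose too, from low levels. Il15ra, which binds IL-15 with high affinity, was at 11.4 to 12.4 CPM in naive, 39.1 to 41.8 in CD45RBhi and 39.3 to 46.2 in CD45RBlo libraries. Its rise was 3.40-fold in CD45RBhi (adjusted p = 2.68e-08) and 3.54-fold in CD45RBlo (adjusted p = 1.79e-08). Il2ra, the CD25 chain that is known for its induction by antigen, had 21, 10 and 13 counts in naive libraries. It had 484, 270, 365 and 387 counts in CD45RBhi and 327, 263, 229 and 390 in CD45RBlo libraries. Every memory library lay far above every naive one, yet the memory level stayed at 11.7 to 24.3 CPM, far below Il2rb. The rise was 25.9-fold in CD45RBhi (log2 fold change 4.69, 95% confidence interval 3.98 to 5.41, adjusted p = 1.74e-07) and 21.4-fold in CD45RBlo (4.42, 3.71 to 5.13, adjusted p = 2.78e-07). Regulatory T cells also carry CD25; of their markers given above, Foxp3 was lower and Ctla4 and the list's sum were higher in memory libraries, and their part in the Il2ra result was not tested.

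Il2rg, the common gamma chain that IL-7, IL-15, IL-2, IL-4 and IL-21 all use, changed little. Its naive libraries held 702, 615 and 684 CPM, its CD45RBhi libraries 823, 956, 868 and 931, and its CD45RBlo libraries 808, 868, 658 and 728. The CD45RBhi libraries all lay above the naive ones, whereas CD45RBlo replicate 3 lay within the naive range. Il2rg rose 1.34-fold in CD45RBhi (log2 fold change 0.42 ± 0.0982, adjusted p = 0.00388). In CD45RBlo the value was 0.20 (95% confidence interval -0.01 to 0.41, adjusted p = 0.124), and without CD45RBlo replicate 3 it was 0.27 (adjusted p = 0.0357). The memory groups themselves were not called different for Il2rg, as described below.

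The private chains for IL-4 and IL-21 fell in both memory groups. Il4ra, the chain that binds IL-4, was at 474, 441 and 408 CPM in naive libraries. It was at 175, 153, 150.0 and 169 CPM in CD45RBhi and at 130.4, 144, 111 and 133 in CD45RBlo libraries, so neither memory group reached the naive range. Il4ra was 2.73-fold lower in CD45RBhi (log2 fold change -1.45 ± 0.0972, adjusted p = 1.18e-07) and 3.40-fold lower in CD45RBlo (-1.77 ± 0.0977, adjusted p = 1.75e-08). Il21r, whose ligand IL-21 comes mainly from helper T cells, was at 577 to 635 CPM in naive, 265 to 301 in CD45RBhi and 273 to 322 in CD45RBlo libraries. It was 2.15-fold lower in CD45RBhi (adjusted p = 1.97e-07) and 2.05-fold lower in CD45RBlo (adjusted p = 3.35e-07). B cells carry both receptors, and the sum of their markers was lower in memory libraries while Cd22 was higher, with the values given above.

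Both chains of the IL-6 receptor fell. Il6st, the signalling chain gp130, was at 432, 493 and 374 CPM in naive libraries. It was at 26.0, 25.5, 32.8 and 32.0 CPM in CD45RBhi and 26.8, 27.3, 28.4 and 35.2 in CD45RBlo libraries, and the memory groups covered nearly the same range. The fall was 14.9-fold in CD45RBhi (log2 fold change -3.90 ± 0.140, adjusted p = 4.25e-10) and 14.7-fold in CD45RBlo (-3.88 ± 0.139, adjusted p = 3.97e-10). Il6ra, the chain that binds IL-6, was at 182, 259.5 and 222 CPM in naive libraries. It was at 8.78, 11.6, 16.9 and 21.8 CPM in CD45RBhi and 9.46, 12.3, 13.8 and 15.7 in CD45RBlo libraries, so every memory library was below every naive one. Il6ra was 15.0-fold lower in CD45RBhi (-3.91 ± 0.269, adjusted p = 1.43e-07) and 17.2-fold lower in CD45RBlo (-4.10 ± 0.271, adjusted p = 9.03e-08). Counts per gene do not tell membrane from soluble forms of these chains.

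Il27ra, the IL-27 chain that pairs with Il6st, kept most of its level. It was at 542 to 572 CPM in naive, 397 to 468 in CD45RBhi and 358 to 458 in CD45RBlo libraries. The fall was 1.26-fold in CD45RBhi (log2 fold change -0.33 ± 0.0896, adjusted p = 0.0103) and 1.33-fold in CD45RBlo (-0.41 ± 0.0895, adjusted p = 0.00251). Beside it, Il6st, the other chain of the IL-27 receptor, had -3.90 in CD45RBhi; the difference between these values was not tested.

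**Figure D2:**
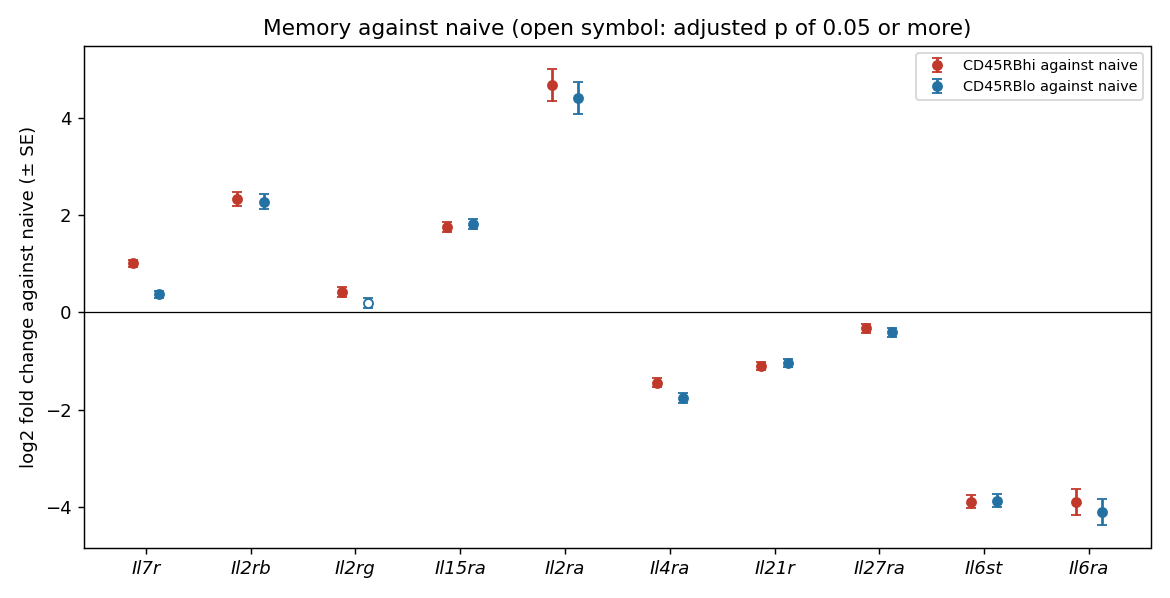
Log2 fold change against naive (± SE) of each chain in CD45RBhi and in CD45RBlo memory; an open symbol marks an adjusted p of 0.05 or more, which applies to Il2rg in CD45RBlo. The values run from -4.10 for Il6ra in CD45RBlo to 4.69 for Il2ra in CD45RBhi.

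Between the memory groups, Il7r alone passed without pairing, 1 of 10 chains against 0.124% of all genes (17 of 13735, with 0.0801% higher and 0.0437% lower). The difference was 1.55-fold in favour of CD45RBhi (log2 fold change 0.63, 95% confidence interval 0.49 to 0.78, adjusted p = 0.00147). The log2 differences within replicate numbers 1 to 4 were 0.63, 0.72, 0.67 and 0.52, so each number gave much the same value. Il7r passed under all 23 alternatives tried, which include every left-out library, with log2 fold changes of 0.61 to 0.68.

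Same-numbered CD45RBhi and CD45RBlo libraries deviated from their group means together, so the 8 memory libraries were also compared with the replicate number as a block. In this paired fit 5.59% of 12637 genes passed, 2.52% higher and 3.08% lower, and 2 of the 10 chains did: Il7r (0.64, adjusted p = 6.46e-05) and Il4ra. Il4ra was higher in CD45RBhi by 0.32 ± 0.0673 log2 units (adjusted p = 0.0176 paired, 0.293 unpaired), and its groups did not overlap: the lowest CD45RBhi library held 150.0 CPM and the highest CD45RBlo library 144. Groups without overlap were found for 2 of 10 chains, Il7r and Il4ra, and for 4.99% of all genes, 2.68% higher and 2.31% lower. The Il4ra call did not survive leaving out pair 1 (adjusted p = 0.0792), pair 3 (0.119) or pair 4 (0.0689), and pair 2 had the smallest difference, 0.08 against 0.43, 0.43 and 0.35. Without pair 2 its value was 0.40 (adjusted p = 0.00275).

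Il2rg lay at the edge of the paired test, at 0.23 ± 0.063 log2 units in favour of CD45RBhi (adjusted p = 0.0517 paired, 0.489 unpaired). Its differences by number were 0.03, 0.14, 0.40 and 0.36, and it passed without pair 1 (adjusted p = 0.0312) or pair 2 (0.0438) but not without pair 3 (0.243) or pair 4 (0.211). Among all 10 chains, 5 kept 1 direction in 4 of 4 numbered pairs, as did 29% of all genes. Il7r, Il2rg, Il4ra and Il27ra were higher in all 4 (14.6% of all genes) and Il21r was lower (14.4% of all genes).

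For the other chains no difference between the memory groups was called, and the paired 95% confidence intervals bound its size on the log2 scale. They ran from -0.09 to 0.20 for Il2rb (0.05, adjusted p = 0.683) and from -0.23 to 0.13 for Il15ra (-0.05, adjusted p = 0.769). The interval of Il21r was -0.17 to 0.05 (-0.06, adjusted p = 0.514), that of Il27ra -0.02 to 0.19 (0.09, adjusted p = 0.334), and that of Il6st -0.22 to 0.18 (-0.02, adjusted p = 0.937). Intervals were wider for the other 2 chains, from -0.02 to 0.53 for Il2ra (0.26, adjusted p = 0.259) and from -0.13 to 0.44 for Il6ra (0.16, adjusted p = 0.541). The Il7r value lay outside all 7 intervals. Its own paired interval was 0.53 to 0.75, which begins about where that of Il2ra ends. Differences between chains were not tested.

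**Figure D3:**
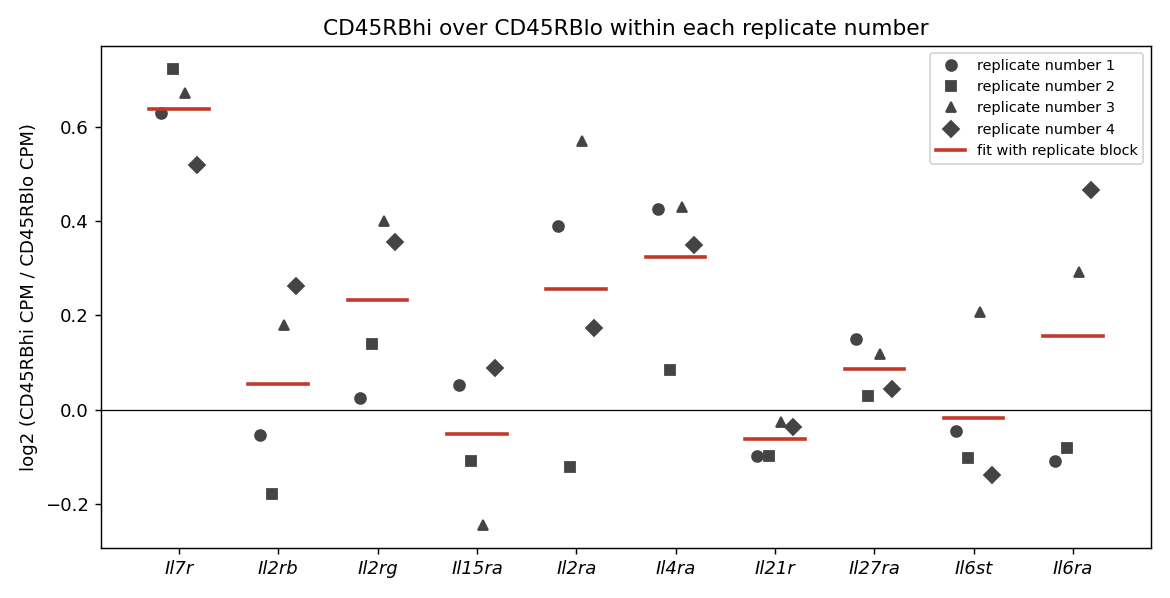
Log2 ratio of the CD45RBhi to the CD45RBlo library of the same replicate number for each chain (symbols for numbers 1 to 4), with the value of the fit with replicate block as a line. All 4 Il7r ratios lie between 0.52 and 0.72, all 4 Il4ra ratios are above 0, and those of Il2rb, Il15ra, Il2ra, Il6st and Il6ra lie on both sides of 0.

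Levels of different chains were compared per kilobase of merged exon. In naive cells the order was Il2rg (279 ± 19.2 CPM per kb, SD), Il21r (181 ± 9.09), Il27ra (159 ± 4.31), Il7r (127 ± 8.10), Il2rb (79.6 ± 7.81), Il4ra (73.5 ± 5.51), Il6st (39.0 ± 5.36), Il6ra (25.6 ± 4.51), Il15ra (2.69 ± 0.113) and Il2ra (0.124 ± 0.0399). Of these neighbours only Il2rb and Il4ra overlapped between libraries. In CD45RBhi memory Il2rb (402 ± 61.3 CPM per kb) and Il2rg (375 ± 25.3) led and overlapped, followed by Il7r (256 ± 9.64), Il27ra (127 ± 8.99), Il21r (84.2 ± 5.04) and Il4ra (27.0 ± 2.03). Il15ra (9.17 ± 0.268), Il2ra (3.26 ± 0.918), Il6st (2.62 ± 0.349) and Il6ra (1.71 ± 0.665) came last, and the last 3 overlapped with their neighbours. CD45RBlo memory had the same order, with Il2rb at 388 ± 61.0, Il2rg at 321 ± 38.4 and Il7r at 165 ± 8.55 CPM per kb; there Il6st and Il6ra did not overlap. Thus Il2rb moved from the fifth place in naive cells to the first in both memory groups, and Il6st and Il6ra moved to the bottom. Scaled by the longest transcript in place of merged exons, Il2rg stood above Il2rb in both memory groups and Il4ra above Il2rb in naive cells. Of the 2387 merged exon bases of Il2rg, 728 overlap exons of Gm20489 on the same strand. Reads lost there could lower the level of Il2rg in this order and in its ratio to Il2rb below.

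**Figure D4:**
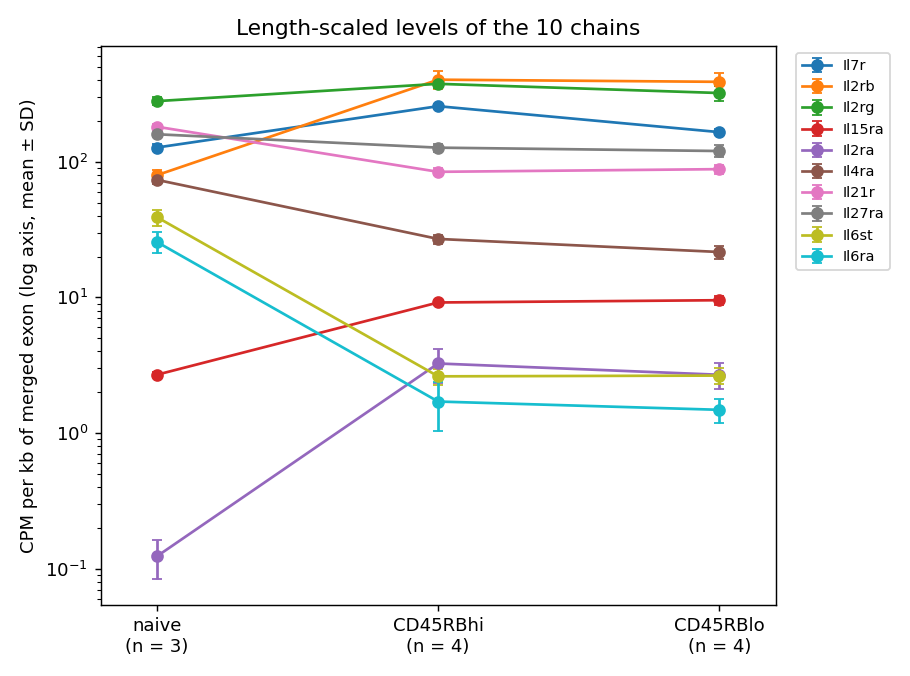
Level per kilobase of merged exon (CPM per kb, log axis, mean ± SD) of the 10 chains in 3 naive, 4 CD45RBhi and 4 CD45RBlo libraries. Lines join the same chain: Il2rb climbs from 79.6 to 402 and 388, while Il6st drops from 39.0 to 2.62 and 2.65.

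Ratios within a library show the balance of the IL-7 and IL-15 chains. The length-scaled log2 ratio of Il7r to Il2rb was 0.69, 0.48 and 0.87 in naive libraries. It was -0.87, -0.29, -0.56 and -0.83 in CD45RBhi and -1.55, -1.19, -1.05 and -1.08 in CD45RBlo libraries. The 3 groups did not overlap. By merged exons Il7r exceeded Il2rb in each naive library and was below it in each memory library, furthest in CD45RBlo. With the longest transcript as length all ratios are higher, and that of CD45RBhi replicate 2 is no longer below 0. The ratio of Il2rb to Il2rg averaged -1.81 ± 0.210 in naive cells, 0.09 ± 0.288 in CD45RBhi cells and 0.27 ± 0.181 in CD45RBlo cells, and the memory groups overlapped. The ratio of Il6ra to Il6st averaged -0.61 ± 0.253, -0.69 ± 0.418 and -0.85 ± 0.199, and the groups overlapped.

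Genes around the receptors were read as lists, whose counts stand beside the shares of all genes called: 22.3% higher and 19.1% lower in CD45RBhi against naive, 22.4% and 19.8% in CD45RBlo against naive, and 2.52% and 3.08% in the paired fit. Of 12 further receptor chains of related families, 4 were detected well enough to be tested: Crlf2 (the TSLP receptor chain), Il11ra1, and the IL-12 receptor chains Il12rb1 and Il12rb2. In CD45RBhi 3 rose and 0 fell against naive: Il12rb2 from 1.14 ± 0.539 to 40.2 ± 7.75 CPM, Il12rb1 from 14.3 ± 2.40 to 79.2 ± 8.34, and Crlf2 by 0.57 log2 units. In CD45RBlo 2 rose, and Crlf2 had 0.37 (adjusted p = 0.074). The other gp130 partners were nearly absent, with Lifr at 0 to 7 counts, Osmr at 0 and Cntfr at 0 to 2 counts in each library. None of the 4 passed between the memory groups, paired or not (0 and 1 with an unadjusted p under 0.05 by edgeR without and with pairing), and Il11ra1 (-0.50, adjusted p = 0.764) passed in no comparison. The median was 1.52 in CD45RBhi against -0.01 over all genes.

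Of 16 ligand genes 5 were tested. Il15 went up from a naive mean of 0.141 ± 0.137 CPM to 4.64 ± 0.999 (CD45RBhi) and 6.21 ± 0.434 (CD45RBlo) (adjusted p = 3.19e-06 and 1.38e-06). Il7 had 0 counts in every naive library and 26 to 42 counts in CD45RBhi and 9 to 56 in CD45RBlo libraries. That is at least 32.2-fold higher in CD45RBhi and at least 33.4-fold higher in CD45RBlo than the limit of 3 counts over the naive group allows. Clcf1, a gp130 ligand of the CNTF family, fell from 72.6 ± 2.63 to 35.1 ± 3.67 and 42.3 ± 3.30 CPM (adjusted p = 4.12e-06 and 5.25e-05). Il2 had 0 to 5 counts in naive and 5 to 18 in memory libraries, and it passed in CD45RBlo (adjusted p = 0.017) and not in CD45RBhi (0.0883). In all 2 ligands rose and 1 fell in CD45RBhi, 3 rose and 1 fell in CD45RBlo, and 0 passed between the memory groups by edgeR (1 with an unadjusted p under 0.05 unpaired, 2 paired). Their median against naive, 1.73 in CD45RBhi and 2.47 in CD45RBlo, is the value of Il2. Il2, Il7 and Il15, with 0 to 6 counts in naive libraries, could be tested only through their memory counts. A median above 0 was therefore fixed in advance, and the count of rises was favoured.

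Of the 9 kinases and STAT factors that carry these signals, 2 rose in CD45RBhi, Tyk2 by 0.66 and Jak1 by 0.25 log2 units, and 3 rose in CD45RBlo, beside 22.3% and 22.4% of all genes. The list medians were -0.06 and 0.07. By the pairs 2 were lower in CD45RBhi than in CD45RBlo: Tyk2, at 259 ± 46.5 and 343 ± 9.15 CPM (-0.42, adjusted p = 0.00969, 0.323 unpaired), and Jak2 (-0.27, adjusted p = 0.0226, 0.47 unpaired). Unpaired, 0 of the 9 passed and 4 had an unadjusted p under 0.05. Stat6, the factor downstream of Il4ra, had -0.15 (adjusted p = 0.0967 paired). Among 8 feedback genes 3 rose and 3 fell in CD45RBhi, and 3 rose and 4 fell in CD45RBlo. Cish, a target and inhibitor of STAT5, rose from 6.13 ± 0.557 to 26.7 ± 6.57 and 33.3 ± 8.06 CPM, and Socs2 rose by 3.67 and 3.77 log2 units. Socs2 had 1 to 8 counts in naive and 51 to 83 in memory libraries, so it could be tested only through its memory counts. Its direction was therefore fixed in advance, and the counts of rises include it. Pias3 rose by 1.28 and 1.68 log2 units and was lower in CD45RBhi than in CD45RBlo by the pairs (-0.40, adjusted p = 0.0191, 0.22 unpaired). Socs1, which inhibits JAK kinases, had 0.34 between the memory groups (adjusted p = 0.062 paired).

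Of 9 transcription factors known to act on receptor genes, 4 rose and 3 fell in CD45RBhi, and 5 rose and 3 fell in CD45RBlo. Tbx21, known as an activator of Il2rb, rose from 15.1 ± 3.02 to 843 ± 33.3 and 867 ± 59.6 CPM. Foxo1, known as an activator of Il7r, fell from 434 ± 4.86 to 200.1 ± 10.5 and 179.8 ± 10.9 CPM (adjusted p = 8e-08 and 2.23e-08). The part of Tbx21 and Foxo1 in the levels of Il2rb and Il7r was not tested. Bach2 fell by 2.02 and 2.21 log2 units. By the pairs Tcf7 was higher in CD45RBhi (0.36, adjusted p = 0.00198, 0.176 unpaired), whereas Foxo1 (0.16, adjusted p = 0.151 paired) and Bach2 (0.19, 0.282) did not pass. The list median between the memory groups was -0.04.

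The 6 survival or death genes known as targets of these cytokines had 2 higher and 1 lower in CD45RBhi against naive. In CD45RBlo 2 were higher and 3 lower. Bcl2l11, which promotes cell death, was 1 of these 3 (-0.61, adjusted p = 0.0402). Bcl2 fell by 0.36 log2 units there (adjusted p = 0.0145) and had 0.05 in CD45RBhi (adjusted p = 0.737). Bcl2l1, which encodes BCL-XL, rose from 18.8 ± 0.522 to 86.5 ± 7.28 and 69.2 ± 10.5 CPM, and the kinase gene Pim1 from 5.25 ± 1.07 to 18.1 ± 5.89 and 11.5 ± 4.71. Pim2 fell by 0.70 and 1.00 log2 units. By the pairs 4 of 6 were higher in CD45RBhi and 0 lower (2.52% and 3.08% of all genes), with a median of 0.32 against -0.01 over all genes. Without pairing 0 of 6 passed and 3 had an unadjusted p under 0.05. Like the other lists, this list was chosen with earlier results of these data known, so the contrast with all genes is not independent support. The 4 were Bcl2 (0.41, adjusted p = 0.00206), Pim2 (0.30, 0.0143), Bcl2l1 (0.33, 0.016) and Pim1 (0.67, 0.0498). Of 3 genes for shedding and processing proteases, 1, Adam17 (0.57 and 0.69 log2 units), which can release Il6ra from the membrane, rose in both memory groups. Adam10 (0.25, adjusted p = 0.218) and Furin (-0.07, adjusted p = 0.842) did not pass in CD45RBhi.

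Genes with profiles most like Il7r, Il2rb and Il6st were found by the root mean square difference of centred log2 CPM over the 11 libraries, among 7937 genes averaging at least 10 CPM. Nearest to Il7r was Tmbim4 (difference 0.14), at 39.4, 67.5 and 51.7 CPM in naive, CD45RBhi and CD45RBlo cells, then Irf8 (0.17) and Gsto1 (0.17). Nearest to Il2rb were the chemokine receptor Cxcr6 (0.16), at 282, 1246 and 1297 CPM, S1pr2 (0.162) and Phf13 (0.165). Nearest to Il6st were Ctse (0.29), at 671, 38.8 and 35.7 CPM, Rgs10 (0.37) and Ephx1 (0.38). The median difference over all candidates was 0.46 for Il7r, 1.04 for Il2rb and 1.76 for Il6st. The libraries share groups and depth, so these values only describe likeness.

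On GRCm38 (GENCODE M21) Il7r (ENSMUSG00000003882) lies on chr15:9505788-9530176 and Il2rb (ENSMUSG00000068227) on chr15:78479256-78495271, both on the minus strand. Il6st (ENSMUSG00000021756) lies on chr13:112464070-112510086, Il6ra (ENSMUSG00000027947) on chr3:89864059-89913196 and Il27ra (ENSMUSG00000005465) on chr8:84030294-84042589. Il4ra (ENSMUSG00000030748) lies on chr7:125552120-125579474, Il21r (ENSMUSG00000030745) on chr7:125603429-125633570, Il2ra (ENSMUSG00000026770) on chr2:11642807-11693193, Il15ra (ENSMUSG00000023206) on chr2:11705290-11734317 and Il2rg (ENSMUSG00000031304) on chrX:101264378-101268255. Exons of Il4ra, Il6ra and Il27ra overlap those of a gene on the other strand by 571, 242 and 2 bases, and exons of Il2rg overlap those of Gm20489 on its own strand by 728 bases. Whether the counting used strand is not given in the sources used here, so reads in those stretches may be shared or lost.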

How the data were processed

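RNA of 11 libraries was sequenced. The table the authors deposited holds raw counts (reads per Ensembl gene, not normalized). Per the submitters' processing notes, featureCounts, SAMtools, DESeq2 and the builds mm10 and GRCm38 were involved, without versions. Aligner, annotation release and strand setting: not given in the sources used here. Genes were kept by filterByExpr (minimum count 10) and scaled by TMM. The main test was the quasi-likelihood test of edgeR 4.0.16 (R 4.3.3, limma 3.58.1) over all 11 libraries; p-values are two-sided and were adjusted by Benjamini-Hochberg over 13735 genes, with a threshold of 0.05. DESeq2 1.42.0 was an alternative. The edgeR fits were tested on simulated data. No replicates were identical, and no library was left out.

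The members, the lists and the naming rule were chosen with earlier results of these data known. The rule names all 10 chains, up to 3 genes of each list by smallest p in CD45RBhi against CD45RBlo and up to 3 against naive, and the 3 nearest profiles (log2 CPM, prior count 2; clone names, receptor segments and ribosomal protein genes left out). Lifr, Osmr, Cntfr and Bcl2l11 were named after their values were seen. Lengths came from GENCODE M21. Protein features were not analysed here, and 1 result of the list of kinases and STAT factors, with that list's counts of lower genes against naive, is not reported here.

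Replicate numbers are in the labels. Deviations from the group means, across genes, correlated at 0.191 to 0.452 between CD45RBhi and CD45RBlo libraries with 1 number and at -0.331 to 0.0284 between other numbers, so numbers were treated as pairs, on the evidence of the data only. For memory with naive libraries these values were -0.101 to 0.0565, and no pairing was used. Deviations within a group sum to 0, so positive values for libraries with 1 number push those between other numbers below 0. The gap between the ranges is thus partly built in. At totals of 18.02 to 23.15 M, 3 counts (the limit for a gene at 0, for counting error only) equal 0.130 to 0.170 CPM.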

Additional observations from a re-analysis of the deposited data

How the results depend on the processing

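Alternatives were other scalings, filters and tools, fits of 2 groups, each library left out, and the replicate block. Of 610 values for single chains, 593 kept their direction and side of the threshold, 5 passed newly, 1 no longer passed and 11 changed sign. The sign changes all concern chains not called between the memory groups. With 1 library left out, their log2 values ran from -0.021 to 0.16 for Il2rb, from -0.049 to 0.38 for Il6ra and from -0.083 to 0.078 for Il6st. With the replicate block, Il6st had 0.0068 without pair 2 and 0.023 without pair 4, Il15ra 0.010 without pair 3 and Il2rb -0.017 without pair 4; the causes were not tested. Il27ra against naive in CD45RBhi had adjusted p = 0.0678 with a replicate block over replicates 1 to 3, whose numbers do not pair memory with naive libraries.

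Genes called between the memory groups numbered 17, against 4 in the fit of these groups alone, 145 by DESeq2, 6 to 15 with 1 library left out, and 707 with the replicate block (167 to 667 without 1 pair). Leaving out naive replicates 1, 2 and 3 gave 7, 7 and 6 genes, CD45RBhi replicates 3 and 4 gave 6 each, and CD45RBlo replicates 1, 3 and 4 gave 9, 7 and 7. With the block it was 344, 167 and 300 without pairs 1, 3 and 4. Chains called between the memory groups numbered 1, and 2 with the replicate block (1 to 3 without 1 pair). The block over replicates 1 to 3 called 3736 genes in CD45RBhi against naive, in place of 5694. The block changed no other call of a chain.

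With the longest transcript as length, the mean log2 ratio of Il7r to Il2rb was 1.05, -0.27 and -0.85 in naive, CD45RBhi and CD45RBlo cells. The ratio of CD45RBhi replicate 2 was then no longer below 0. That of Il2rb to Il2rg was -2.30, -0.39 and -0.21, below 0 in both memory groups in place of above it, and that of Il6ra to Il6st was -0.97, -1.05 and -1.21. Gene length differs between the scalings by construction. Depth limits Il2ra in naive cells, at 10 to 21 counts a library.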

Other observations

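Members that are neighbours in the genome moved in the same direction against naive, in the few pairs described here. How often other neighbouring genes do so was not computed. Il2ra and Il15ra lie on chromosome 2 with 12096 bases and no protein-coding gene between them, and both rose, by 4.69 and 1.77 log2 units in CD45RBhi. Il4ra and Il21r lie on chromosome 7 with 23954 bases and no protein-coding gene between them, and both fell, by 1.45 and 1.10 log2 units. Between the memory groups Il4ra and Il21r differed in sign, at 0.32 and -0.06 log2 units, and only the first passed, in the paired fit; the difference between these values was not tested. Il7r and Il2rb lie on the same chromosome too, with 68949079 bases between them.

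Within the memory groups, some chains were high or low in libraries of the same replicate number. The same number held the highest library in both groups for 6 of 10 chains, beside 47.5% of all 13735 genes, and the lowest for 3 of 10, beside 48.5%. Neither count sets the chains apart. Il2rb was highest in replicate 1 of CD45RBhi (1952 CPM) and of CD45RBlo (2027), as were Il21r (301 and 322) and Il2ra (24.3 and 18.5). Il6ra was lowest in replicate 1 (8.78 and 9.46 CPM) and highest in replicate 4 (21.8 and 15.7), and Il27ra was lowest in replicate 1 (397 and 358) and highest in replicate 2 (468 and 458). What a replicate number stands for is not given in the labels.

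No single library of a memory group was flagged for any chain by Dixon's test at 95%, in 20 combinations of chain and group. With 4 libraries in a group this test has little power. It did not flag Il6st in CD45RBlo, at 35.2 CPM in replicate 4 and 26.8 to 28.4 in the other replicates.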
